A study of Mus musculus with 12 samples.

Results

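The genes described here encode the nuclear part of the mitochondrial respiratory chain, in CD8+CD28low regulatory T cells of mice with and without Aire. They are the genes whose platform symbol starts with Ndufa, Ndufb, Ndufs, Ndufv, Ndufc, Sdha, Sdhb, Sdhc, Sdhd, Uqcr, Cox4, Cox5, Cox6, Cox7, Cox8 or Atp5. The rule picked 93 of the 19938 genes measured by symbol alone, and was chosen with earlier results of these data known. Where a gene had several transcript clusters, the brightest over all 12 arrays was kept. Of these, 81 encode subunits: 34 of complex I, 4 of complex II, 8 of complex III, 18 of complex IV and 17 of complex V. The other 12 encode assembly or supercomplex factors that share a prefix with the subunits.

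RNA was measured on 12 whole-transcript arrays, 3 for each of 4 groups of C57Bl/6 cells. Activated KO cells lacked Aire and had spent 96 h in culture with an anti CD3 antibody and antigen-presenting cells from an allogenic source. Activated WT cells were wild type and had the same culture. Native KO and native WT cells were taken fresh from mice of the same genotypes. The titles call the arrays biological replicates; the Aire allele, the number of mice behind an array and the isolation of the cells are not stated in the labels. P-values therefore measure the spread between these arrays, whatever its source. The culture differed from the fresh cells in time, stimulation and company at once, and these cannot be told apart. The arrays also carry experiment numbers, which are 1, 3 and 5 for native and 2, 4 and 6 for activated cells. Each number is shared by 1 KO and 1 WT array. No experiment holds both states, so state and experiment cannot be told apart either.

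The respiratory chain passes electrons from NADH (complex I) and succinate (complex II) through coenzyme Q to complex III, cytochrome c and complex IV, which reduces oxygen. Complexes I, III and IV pump protons across the inner membrane, and complex V, the ATP synthase, uses the gradient to make ATP. Most subunits are encoded in the nucleus and join a small core encoded by mitochondrial DNA, which these 93 genes do not include. T cells are known to build more mitochondrial mass when they are stimulated and start to divide.

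All values are levels on the log2 scale of RMA, in which a difference of 1 is a doubling, and levels of different genes are not compared. Background on an array was set at the 95th percentile of 1027 olfactory receptor genes, a family that serves smell. The 3rd array of activated KO cells stood apart, with a background of 7.31, where the rest had 6.12 to 6.72. Its interquartile range over all transcript clusters was 2.19, where the rest had 2.45 to 2.89. Results that rest on it are given with and without it. Activated WT array 2 came next, with a background of 6.72 and an interquartile range of 2.45. Aire itself was at background on every array, at 5.62 to 5.89 in activated KO, 5.55 to 5.78 in activated WT, 5.61 to 5.73 in native KO and 5.70 to 5.92 in native WT cells, and so does not check the genotype labels. The 5 measured CD8 T cell markers were above background in all groups, with a median activation difference of -0.68 in KO cells, where 1 of 5 was called lower, and -0.36 in WT cells, where none was. Of 4 natural killer cell markers 2 were called lower in KO cells, and 1 higher and 1 lower in WT cells. Ncr1 and Klra8 among them were at background in the activated groups alone. All 8 neutrophil markers were at background in both activated groups, while none was in native KO cells and 1 was in native WT cells. Their summed log2 level was 42.7 to 45.7 in activated KO, 42.9 to 44.7 in activated WT, 49.9 to 71.1 in native KO and 43.5 to 56.3 in native WT cells. The part of these markers in the results was not tested. All 10 macrophage and dendritic cell markers were at background in both activated groups, although antigen-presenting cells had been in the culture.

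Many respiratory chain subunits were higher in activated than in native cells of both genotypes. In KO cells 24 of the 93 genes rose and 3 fell, and in WT cells 34 rose and 2 fell (limma, Benjamini-Hochberg adjusted p under 0.05 over all 19938 genes). Over all genes 8.72% rose and 11.4% fell in KO cells, and 9.72% rose and 10.9% fell in WT cells. A closer comparison is the 9307 genes above background in all 4 groups, to which 87 of the 93 belong: 13.2% rose and 20.2% fell in KO cells, and 15.1% rose and 19.2% fell in WT cells. The median difference of the 93 genes was 0.29 in KO cells and 0.40 in WT cells, where the median of all genes was 0.02 in KO and -0.02 in WT cells and that of the 9307 genes was -0.10 in KO and -0.06 in WT cells. With all arrays, every gene that rose was a subunit, and every gene that fell was an assembly or supercomplex factor. All 3 activated arrays lay above all 3 native arrays for 44 of the 93 genes in KO cells and 48 in WT cells, against 13.8% of all genes in KO and 17.5% in WT cells. In bulk RNA, fewer cells of a type and less RNA per cell cannot be told apart.

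The count of rises moved with single arrays, and the sign of the median did not. In KO cells it was 36 without activated KO array 3, 11 without activated KO array 1, 9 without native KO array 2 and 13 without native KO array 3. In WT cells it was 20 without activated WT array 1, 19 without activated WT array 3 and 14 without native WT array 2. Without activated WT array 2 it was 47. The share of all genes that rose moved as well. In KO cells it was 13.4%, 6.21%, 6.13% and 6.42% without these arrays in the same order. In WT cells this share was 7.08%, 6.83%, 6.77% and 11.7%. The median of the 93 genes stayed between 0.22 and 0.38 in KO cells and between 0.34 and 0.50 in WT cells when any array was left out. After quantile normalization 13.3% of all genes rose and 10.7% fell in KO cells, and 14.6% rose and 10.3% fell in WT cells. The 93 genes then gave 37 rises in KO and 53 in WT cells. The calls that held under all 21 alternatives in KO cells were those of Cox5a, Cox6c, Cox7a1, Cox8a, Ndufa12, Ndufa8, Ndufb9, Sdhb and Uqcr11 on the higher side and Sdhaf1 and Ndufaf5 on the lower side. In WT cells they were those of Atp5mpl, Atp5pb, Cox5a, Cox6c, Cox7a1, Cox8a, Ndufa12, Ndufa13, Ndufa7, Ndufa8, Ndufb9, Ndufc2, Ndufs8 and Uqcr11, with the same pair lower. Every other call was lost under at least 1 alternative.

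**Figure D1:**
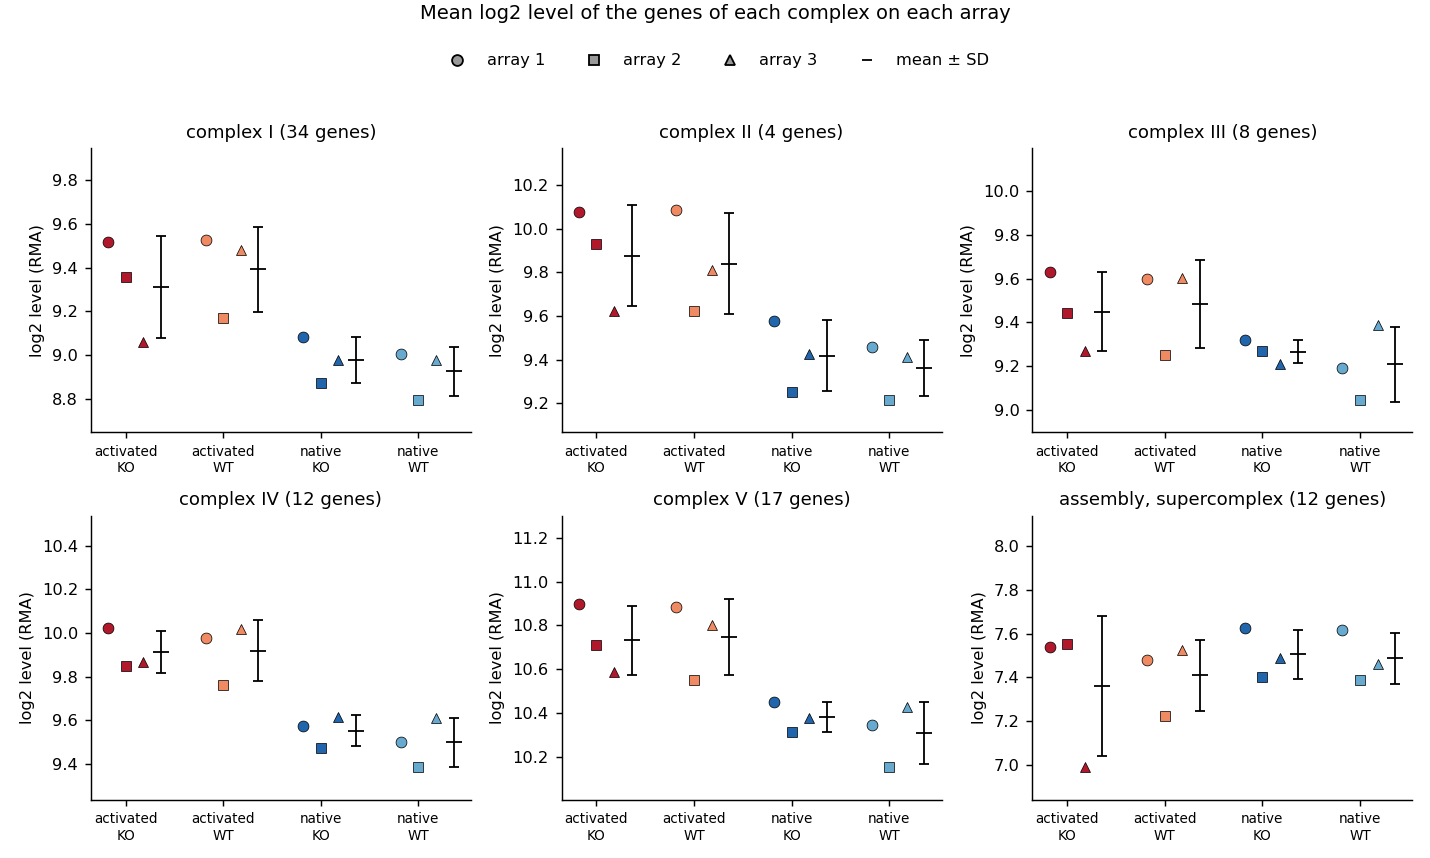
Mean log2 level of the genes of each complex on each array (vertical axis, log2 RMA level; every panel spans the same range) in activated KO, activated WT, native KO and native WT cells, over the genes above background in all 4 groups. Points are arrays and bars the mean ± SD of 3 arrays. The activated means are above the native means in all 5 complexes and below them for the assembly and supercomplex factors, where activated KO array 3 is lowest at 6.99.

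Averaged over their genes, the complexes showed which arrays carried the shift. Complex I averaged 9.52, 9.36 and 9.06 on the activated KO arrays and 9.53, 9.17 and 9.48 on the activated WT arrays, against 9.08, 8.87 and 8.98 on the native KO arrays and 9.005, 8.80 and 8.98 on the native WT arrays. Complex V averaged 10.90, 10.71 and 10.59 in activated KO cells and 10.89, 10.55 and 10.80 in activated WT cells, against 10.45, 10.31 and 10.37 in native KO cells and 10.35, 10.15 and 10.43 in native WT cells. For complex V no activated array reached down to a native one of its genotype, while for complex I activated KO array 3 lay just below native KO array 1. Activated WT array 2 was the lowest of the activated WT arrays for complexes I, II, III, IV and V.

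Complex I, the NADH dehydrogenase, had 10 of 34 genes higher in KO cells and 14 of 34 in WT cells, with median differences of 0.34 in KO and 0.51 in WT cells. None fell. The KO count was 16 of 34 without activated KO array 3. The largest called rises were in accessory subunits: Ndufa12, Ndufb8 and Ndufb9 in KO cells, and Ndufv3, Ndufc2 and Ndufb9 in WT cells. Ndufb9, of the membrane arm, read 10.13, 10.06 and 9.71 in activated KO cells and 10.03, 9.69 and 10.23 in activated WT cells, against 9.27, 9.23 and 9.21 in native KO cells and 9.14, 8.83 and 9.19 in native WT cells. Its activated arrays were all above its native arrays, and the difference was 0.73 ± 0.16 (adjusted p = 0.00686) in KO cells and 0.93 ± 0.16 (adjusted p = 0.0015) in WT cells.

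Ndufa12, an accessory subunit of the matrix arm, read 9.58, 9.37 and 9.60 in activated KO cells and 9.66, 9.29 and 9.80 in activated WT cells, against 8.72, 8.65 and 8.69 in native KO cells and 8.92, 8.71 and 8.81 in native WT cells. The groups did not overlap between states, and it rose by 0.83 ± 0.13 (adjusted p = 0.00104) in KO and 0.77 ± 0.13 (adjusted p = 0.00157) in WT cells. Ndufc2, also a membrane arm subunit, rose by 0.71 ± 0.17 (adjusted p = 0.0133) in KO and 0.95 ± 0.17 (adjusted p = 0.00224) in WT cells. The KO call of Ndufc2 was lost without activated KO array 1 or native KO array 2. Ndufb8 rose by 0.78 ± 0.23 (adjusted p = 0.0305) in KO and 0.90 ± 0.23 (adjusted p = 0.0152) in WT cells, and both calls were lost when some single arrays were left out.

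Ndufv3, an accessory subunit of the module that oxidises NADH, differed between activated KO array 3 and the other activated arrays. It read 9.97, 10.06 and 8.78 in activated KO cells and 9.95, 9.89 and 9.99 in activated WT cells, against 8.98, 8.95 and 9.19 in native KO cells and 8.92, 8.996 and 8.98 in native WT cells. Activated KO arrays 1 and 2 were above every native array, and array 3 was below all of the native arrays of both genotypes. It rose in WT cells by 0.98 ± 0.26 (adjusted p = 0.0196) and its difference in KO cells was 0.56 ± 0.26 (adjusted p = 0.176). Without activated KO array 3 the KO difference was 0.97 ± 0.10 (adjusted p = 3e-05). The WT call was lost when any WT array but activated WT array 2 was left out.

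The nuclear-encoded core subunits, which carry the flavin and iron-sulfur centres or shape the coenzyme Q site, included both called and uncalled genes. Ndufs8, an iron-sulfur subunit next to that site, rose by 0.45 ± 0.14 (adjusted p = 0.0372) in KO and 0.67 ± 0.14 (adjusted p = 0.0045) in WT cells. Ndufs7, its neighbour, rose in WT cells by 0.42 ± 0.11 (adjusted p = 0.022), and its difference in KO cells was 0.18 ± 0.11 (adjusted p = 0.338). Ndufv2 rose in WT cells by 0.56 ± 0.14 (adjusted p = 0.0159), with 0.29 ± 0.14 (adjusted p = 0.203) in KO cells. Ndufs1, Ndufs3 and Ndufv1 were called in neither genotype. The lowest differences of complex I were those of Ndufa5, Ndufa3 and Ndufa6, none of them called. Ndufa6 had -0.42 ± 0.31 in KO cells with all arrays (adjusted p = 0.43) and 0.06 ± 0.13 without activated KO array 3 (adjusted p = 0.815).

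Complex II, succinate dehydrogenase, is the complex built without a mitochondrially encoded subunit, and its 4 genes split. Sdhb, the iron-sulfur subunit, read 9.75, 9.39 and 9.81 in activated KO cells and 9.64, 8.94 and 9.69 in activated WT cells, against 8.78, 8.27 and 8.47 in native KO cells and 8.60, 8.14 and 8.68 in native WT cells. All activated arrays were above all native arrays, and Sdhb rose by 1.14 ± 0.22 (adjusted p = 0.00354) in KO and 0.95 ± 0.22 (adjusted p = 0.0101) in WT cells. Sdha, the flavoprotein subunit that binds succinate, read 10.59, 10.58 and 10.22 in activated KO cells and 10.53, 10.35 and 10.46 in activated WT cells, against 10.48, 10.24 and 10.51 in native KO cells and 10.48, 10.37 and 10.43 in native WT cells. Its groups overlapped, with differences of 0.05 ± 0.12 (adjusted p = 0.852) in KO and 0.02 ± 0.12 (adjusted p = 0.957) in WT cells. Without activated KO array 3 the Sdha difference in KO cells was 0.17 ± 0.11 (adjusted p = 0.289). The difference between the responses of Sdha and Sdhb was not tested.

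The membrane anchors lay between them. Sdhc rose by 0.40 ± 0.12 (adjusted p = 0.0353) in KO and 0.51 ± 0.12 (adjusted p = 0.0099) in WT cells. Sdhd had differences of 0.24 ± 0.29 (adjusted p = 0.678) in KO and 0.44 ± 0.29 (adjusted p = 0.377) in WT cells, not called, and in KO cells 0.60 ± 0.22 without activated KO array 3 (adjusted p = 0.0733). In WT cells the calls of Sdhb and Sdhc were lost without native WT array 2, at adjusted p = 0.052 and 0.0517. The KO call of Sdhb held under all 21 alternatives.

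**Figure D2:**
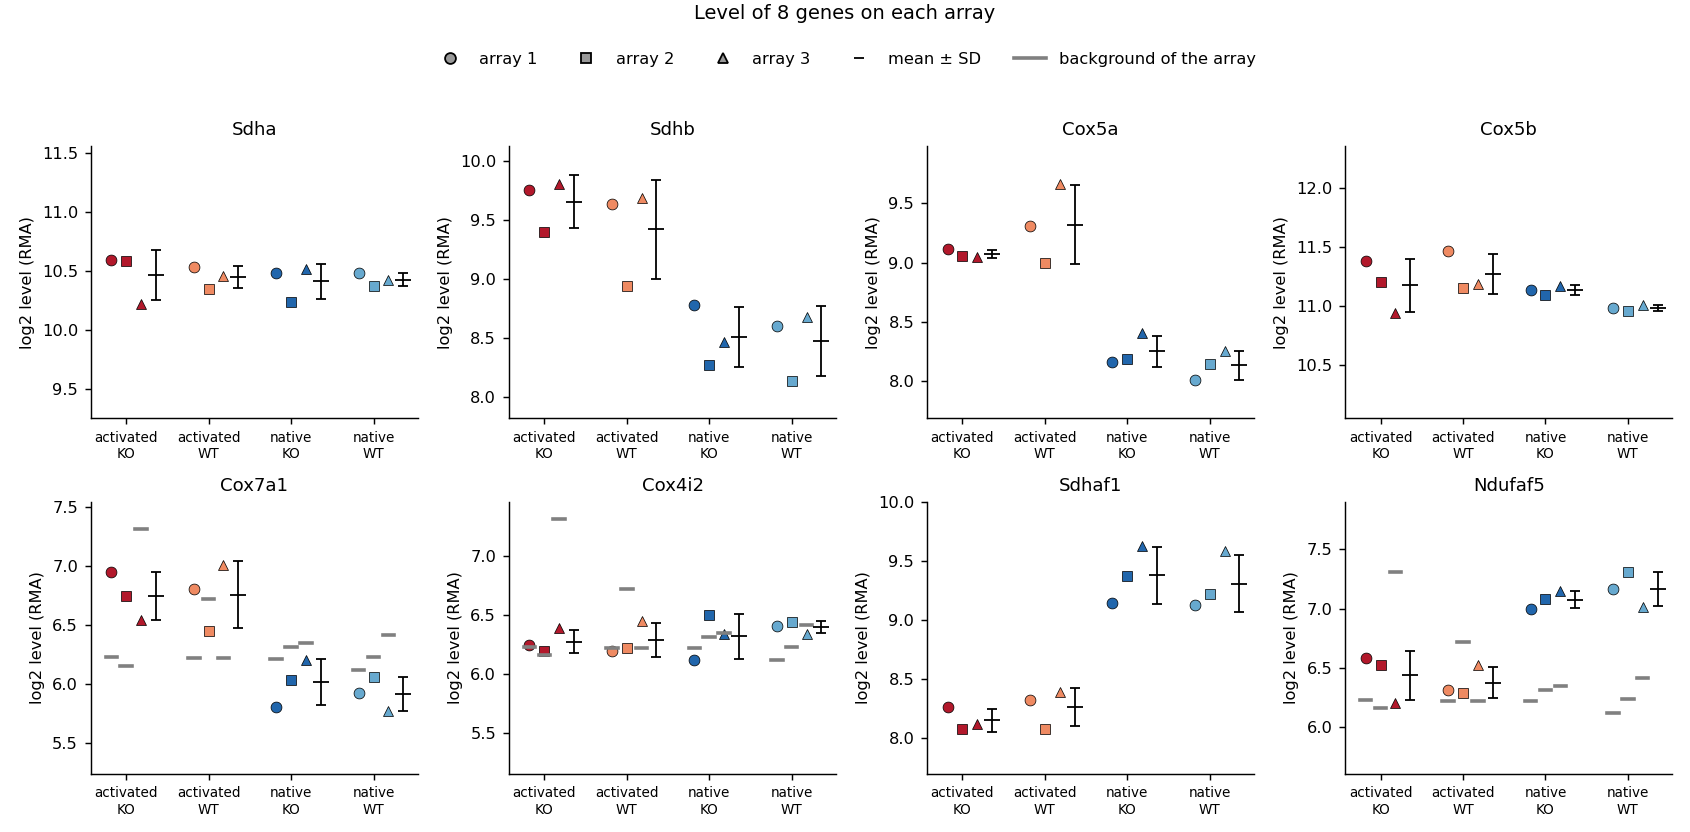
Log2 level (vertical axis, RMA; every panel spans the same range) of 8 genes on each array in activated KO, activated WT, native KO and native WT cells. Points are arrays, bars the mean ± SD of 3 arrays and grey ticks the background of each array where it falls in the panel. Sdhb and Cox5a are higher on every activated array, Sdhaf1 and Ndufaf5 are lower on every activated array, and Sdha overlaps between states.

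Complex III, the cytochrome bc1 complex, had 1 of 8 genes higher in each genotype, with median differences of 0.20 in KO and 0.29 in WT cells. That is 12.5%, near the share of the 9307 genes above background, of which 13.2% rose in KO and 15.1% in WT cells. The gene that rose was Uqcr11, a small accessory subunit. Its level was close to background on several arrays. It lay below the array's background of 7.31 on activated KO array 3 and of 6.35 on native KO array 3. It read 7.58, 7.18 and 7.13 in activated KO cells and 7.59, 6.87 and 7.56 in activated WT cells, against 6.65, 6.37 and 6.28 in native KO cells and 6.53, 6.26 and 6.56 in native WT cells, so the states did not overlap. It rose by 0.86 ± 0.20 (adjusted p = 0.00981) in KO and 0.89 ± 0.20 (adjusted p = 0.00792) in WT cells, and a further transcript cluster under the same symbol was called higher in both genotypes too. The core subunit Uqcrc1 had 0.26 ± 0.15 (adjusted p = 0.271) in KO and 0.36 ± 0.15 (adjusted p = 0.112) in WT cells, and the Rieske iron-sulfur protein Uqcrfs1 had -0.10 ± 0.18 (adjusted p = 0.794) in KO and -0.10 ± 0.18 (adjusted p = 0.801) in WT cells. The lowest difference was that of Uqcrh, the hinge protein, at -0.56 ± 0.19 (adjusted p = 0.0569) in KO and -0.18 ± 0.19 (adjusted p = 0.631) in WT cells, and -0.32 ± 0.14 (adjusted p = 0.115) in KO cells without activated KO array 3.

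Complex IV, cytochrome c oxidase, had 7 of 18 genes higher in KO cells and 8 of 18 in WT cells, with median differences of 0.34 in KO and 0.36 in WT cells. None fell. Several of its subunits come as a form found in most tissues and a form restricted to some, such as muscle, lung or testis. Among the 10 genes without such restriction 6 rose in KO cells and 7 in WT cells. Cox5a, which faces the matrix, read 9.11, 9.05 and 9.05 in activated KO cells and 9.31, 8.99 and 9.66 in activated WT cells, against 8.16, 8.19 and 8.40 in native KO cells and 8.004, 8.14 and 8.25 in native WT cells. All activated arrays of both genotypes were above all native arrays.

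The difference of Cox5a was 0.82 ± 0.15 (adjusted p = 0.00261) in KO cells and 1.19 ± 0.15 (adjusted p = 0.000198) in WT cells. In KO cells 1146 of the 19938 genes had a larger positive difference, and in WT cells 772 did. Cox5b, a zinc-binding subunit, was called in neither, at 0.04 ± 0.13 (adjusted p = 0.894) in KO and 0.28 ± 0.13 (adjusted p = 0.147) in WT cells. Cox4i1 rose in WT cells by 0.46 ± 0.15 (adjusted p = 0.0414), with 0.36 ± 0.15 (adjusted p = 0.118) in KO cells, and the lung form Cox4i2 had -0.04 ± 0.12 (adjusted p = 0.87) in KO and -0.11 ± 0.12 (adjusted p = 0.665) in WT cells. Cox6b1 rose by 0.67 ± 0.17 (adjusted p = 0.0147) in KO and 0.70 ± 0.17 (adjusted p = 0.0116) in WT cells.

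Several other forms found in most tissues rose by less. Cox6a1 rose by 0.47 ± 0.14 (adjusted p = 0.0289) in KO and 0.45 ± 0.14 (adjusted p = 0.0366) in WT cells, and Cox7b by 0.37 ± 0.10 (adjusted p = 0.024) in KO and 0.38 ± 0.10 (adjusted p = 0.02) in WT cells. A dimmer transcript cluster of Cox7b was called in neither genotype, at 0.22 in KO and 0.23 in WT cells. Cox8a rose by 0.51 ± 0.11 (adjusted p = 0.0066) in KO and 0.53 ± 0.11 (adjusted p = 0.0046) in WT cells. Cox6c rose by 0.44 ± 0.11 (adjusted p = 0.0128) in KO and 0.51 ± 0.11 (adjusted p = 0.0054) in WT cells. A dimmer transcript cluster of Cox6c was not called in KO cells, at 0.27, and was called higher in WT cells, at 0.32. Cox7a2 was called in neither genotype, at 0.32 ± 0.14 (adjusted p = 0.17) in KO and 0.33 ± 0.14 (adjusted p = 0.148) in WT cells. Ndufa4, first described in complex I and since placed in complex IV, had 0.16 ± 0.22 (adjusted p = 0.726) in KO and 0.20 ± 0.22 (adjusted p = 0.64) in WT cells.

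Several of the restricted forms lay near background. Cox8b (muscle), Cox8c (testis) and Ndufa4l2 (induced by low oxygen) were at background in all 4 groups. Cox7a1, the form of heart and muscle, read 6.95, 6.74 and 6.54 in activated KO cells and 6.80, 6.45 and 7.01 in activated WT cells, against 5.81, 6.04 and 6.20 in native KO cells and 5.92, 6.06 and 5.77 in native WT cells. It was at background in both native groups and above it on 2 of 3 arrays of each activated group. The measured difference was 0.73 in KO cells (adjusted p = 0.00864) and 0.84 in WT cells (adjusted p = 0.00366). With the background of each native array in place of the gene's own level, it was 1.37-fold higher in activated KO and 1.42-fold higher in activated WT cells. These folds are not strict lower bounds. The activated means include activated KO array 3 and activated WT array 2, where the gene lay below the array's background. Cox6a2 of muscle had 0.20 ± 0.17 (adjusted p = 0.51) in KO and 0.11 ± 0.17 (adjusted p = 0.768) in WT cells. The testis forms Cox6b2 and Cox7b2 were at background in some groups and were not called.

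Complex V, the ATP synthase, had 4 of 17 genes higher in KO cells and 9 of 17 in WT cells, with median differences of 0.36 in KO and 0.43 in WT cells, and none fell. The KO count was 7 of 17 without activated KO array 3. The largest called rises were in the stalk and in small membrane subunits. Atp5pb, subunit b of the stator, read 11.57, 11.29 and 10.94 in activated KO cells and 11.48, 11.10 and 11.11 in activated WT cells, against 10.78, 10.46 and 10.42 in native KO cells and 10.58, 10.31 and 10.45 in native WT cells. The states did not overlap, and it rose by 0.71 ± 0.17 (adjusted p = 0.0119) in KO and 0.78 ± 0.17 (adjusted p = 0.00682) in WT cells. A dimmer transcript cluster of Atp5pb was also called higher, at 0.44 in KO and 0.41 in WT cells. Atp5o, which joins the stator to the catalytic head, rose by 0.53 ± 0.17 (adjusted p = 0.0475) in KO and 0.70 ± 0.17 (adjusted p = 0.0118) in WT cells. Atp5mpl, a small proteolipid of the membrane part, rose by 0.52 ± 0.14 (adjusted p = 0.0231) in KO and 0.66 ± 0.14 (adjusted p = 0.00623) in WT cells.

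Atp5md, which helps to link synthase dimers, rose in WT cells by 0.81 ± 0.24 (adjusted p = 0.0343) and had 0.70 ± 0.24 (adjusted p = 0.0637) in KO cells. A dimmer transcript cluster of Atp5md was called higher in both genotypes, at 0.72 in KO and 0.74 in WT cells. A further cluster of the gene was called in neither, at 0.69 in KO and 0.78 in WT cells. The catalytic subunit gene Atp5b rose in WT cells by 0.37 ± 0.11 (adjusted p = 0.0383) and had 0.29 ± 0.11 (adjusted p = 0.0957) in KO cells, while its partner Atp5a1 was called in neither. The 3 genes that encode the same mature ring subunit c were Atp5g1, Atp5g2 and Atp5g3. Atp5g2 rose in WT cells by 0.49 ± 0.15 (adjusted p = 0.0364) and Atp5g3 by 0.54 ± 0.15 (adjusted p = 0.0231), and Atp5g1 was not called at 0.43 ± 0.16 (adjusted p = 0.0835). In KO cells none of them was called, at 0.39 ± 0.16 (adjusted p = 0.127) for Atp5g1, 0.22 ± 0.15 (adjusted p = 0.384) for Atp5g2 and 0.41 ± 0.15 (adjusted p = 0.0767) for Atp5g3.

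**Figure D3:**
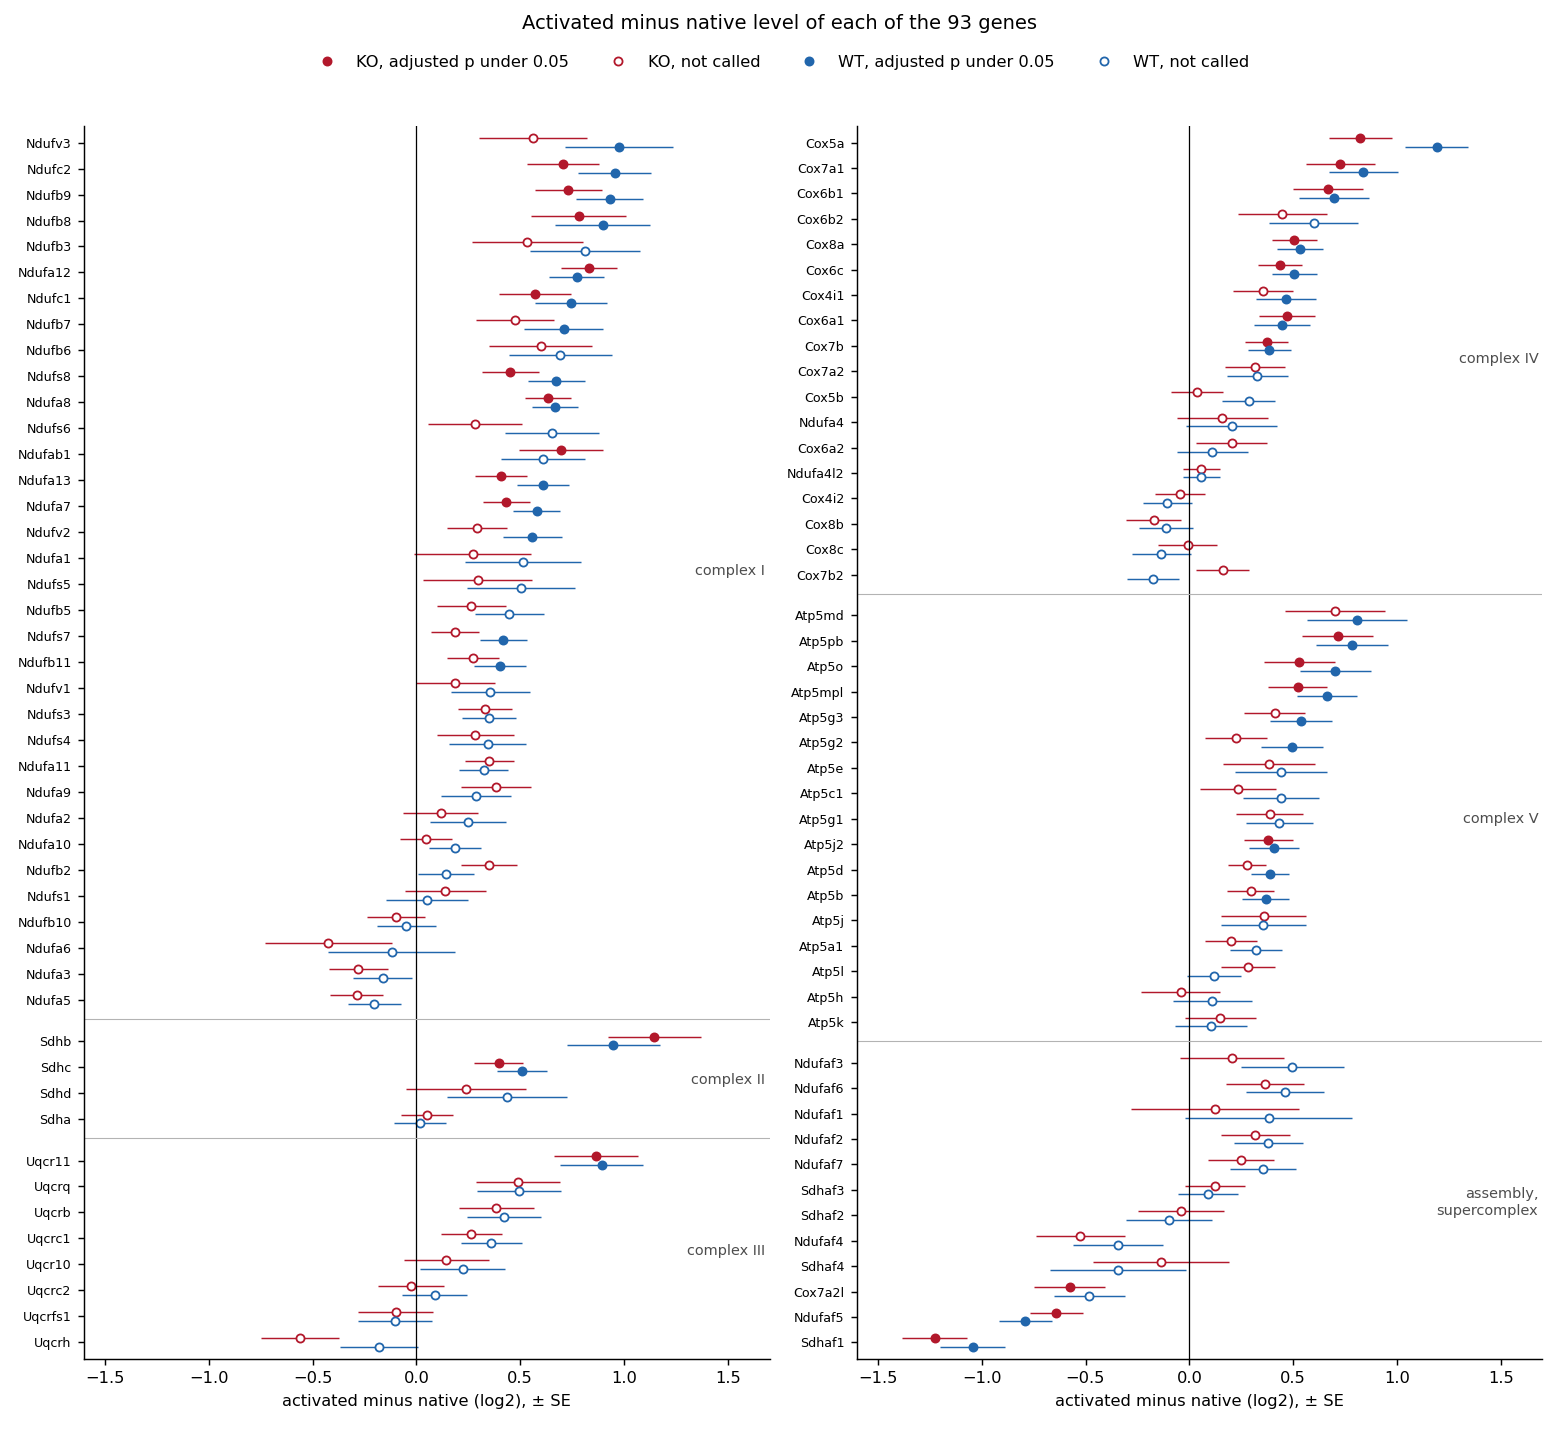
Activated minus native difference (horizontal axis, log2, ± SE of the fit, 3 arrays a group) of each of the 93 genes in KO (red) and WT cells (blue), ordered within each complex by the WT difference. Filled points passed an adjusted p of 0.05. The filled points right of 0 are all subunits, and those left of 0 are Sdhaf1, Ndufaf5 and, in KO cells, Cox7a2l.

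Among the 12 assembly and supercomplex factors none rose, 3 fell in KO cells and 2 in WT cells, with medians of 0.04 in KO and -0.0031 in WT cells. With so few genes these counts are near the shares of all genes, and the factors were not tested against the subunits. Their KO median was 0.27, with 8 of 12 above 0, without activated KO array 3. Sdhaf1, which helps to place the iron-sulfur clusters in Sdhb, read 8.26, 8.08 and 8.12 in activated KO cells and 8.32, 8.08 and 8.39 in activated WT cells, against 9.14, 9.37 and 9.63 in native KO cells and 9.13, 9.22 and 9.58 in native WT cells. Every activated array was below every native array, and it fell, with differences of -1.23 ± 0.16 (adjusted p = 0.000197) in KO and -1.04 ± 0.16 (adjusted p = 0.000589) in WT cells. Sdhb and Sdhaf1 thus differed in opposite directions on every array of both states. Ndufaf5, a methyltransferase-like factor that modifies Ndufs7 early in complex I assembly, read 6.58, 6.52 and 6.20 in activated KO cells and 6.31, 6.28 and 6.52 in activated WT cells, against 6.997, 7.08 and 7.14 in native KO cells and 7.17, 7.31 and 7.02 in native WT cells. It fell, with differences of -0.64 ± 0.13 (adjusted p = 0.00418) in KO and -0.79 ± 0.13 (adjusted p = 0.00107) in WT cells, and it was below the array's background on activated KO array 3 and activated WT array 2.

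Cox7a2l, a factor of complex III and IV supercomplexes, read 8.28, 8.53 and 7.84 in activated KO cells and 8.15, 8.52 and 8.40 in activated WT cells, against 8.63, 8.93 and 8.82 in native KO cells and 8.78, 8.76 and 8.98 in native WT cells. It fell in KO cells, at -0.58 ± 0.17 (adjusted p = 0.0322), and was not called in WT cells, at -0.48 ± 0.17 (adjusted p = 0.0685). Without activated KO array 3 its KO difference was -0.39 ± 0.14 (adjusted p = 0.0658). A dimmer transcript cluster of the gene was called lower in both genotypes, at -0.91 in KO and -0.76 in WT cells. Without activated KO array 3, Ndufaf4 fell in KO cells (-0.68 ± 0.22, adjusted p = 0.0418) and Ndufaf3 and Ndufaf6 rose (0.57 ± 0.14, adjusted p = 0.0107, and 0.58 ± 0.15, adjusted p = 0.0164), so the statement that no factor rose holds only with that array.

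**Figure D4:**
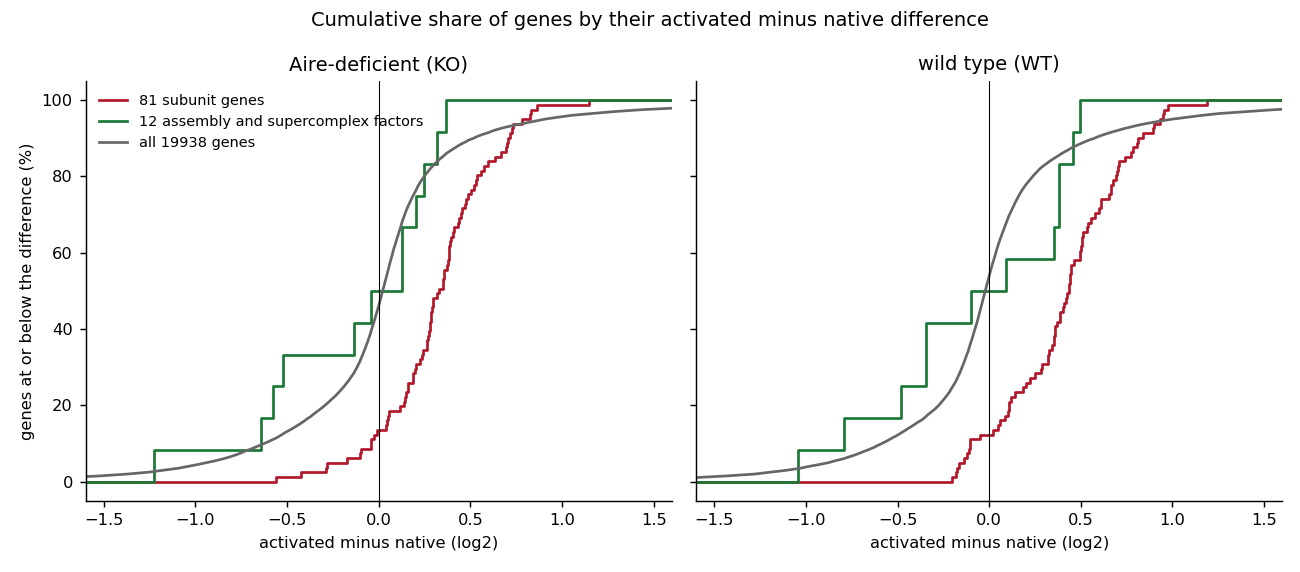
Share of genes (vertical axis, percent) at or below each activated minus native difference (horizontal axis, log2) in KO cells (left) and WT cells (right), for the 81 subunit genes, the 12 assembly and supercomplex factors and all 19938 genes. The subunit curve lies right of the curve of all genes around its middle, with medians of 0.33 in KO and 0.43 in WT cells. It crosses to the left near the upper end, where the largest rises were a smaller share of subunits than of all genes.

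Promoter sequences are shown for the gene with the largest rise in WT cells, for the complex II pair that split and for the factor with the largest fall. They are RefSeq windows of GRCm38.p6 that run from 250 bases before to 50 bases after the annotated start, 5′ to 3′ on the strand of the gene. Cox5a is at chr9:57520982-57521281 on the plus strand, Sdhb at chr4:140961021-140961320 on the plus strand, Sdha at chr13:74350191-74350490 on the minus strand and Sdhaf1 at chr7:30322326-30322625 on the minus strand. Capitals mark matches to the motifs searched.
Cox5a: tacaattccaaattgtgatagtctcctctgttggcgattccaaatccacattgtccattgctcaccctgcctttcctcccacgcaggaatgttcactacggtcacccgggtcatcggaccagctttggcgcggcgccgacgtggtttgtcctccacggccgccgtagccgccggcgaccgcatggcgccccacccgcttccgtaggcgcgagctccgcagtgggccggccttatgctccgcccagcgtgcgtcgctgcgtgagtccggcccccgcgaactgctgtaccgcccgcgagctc
Sdhb: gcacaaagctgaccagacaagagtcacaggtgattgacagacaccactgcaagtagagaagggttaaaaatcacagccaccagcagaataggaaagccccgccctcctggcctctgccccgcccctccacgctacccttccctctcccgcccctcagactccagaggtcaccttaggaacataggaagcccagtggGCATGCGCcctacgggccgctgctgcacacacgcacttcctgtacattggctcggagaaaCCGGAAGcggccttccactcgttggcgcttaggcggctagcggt
Sdha: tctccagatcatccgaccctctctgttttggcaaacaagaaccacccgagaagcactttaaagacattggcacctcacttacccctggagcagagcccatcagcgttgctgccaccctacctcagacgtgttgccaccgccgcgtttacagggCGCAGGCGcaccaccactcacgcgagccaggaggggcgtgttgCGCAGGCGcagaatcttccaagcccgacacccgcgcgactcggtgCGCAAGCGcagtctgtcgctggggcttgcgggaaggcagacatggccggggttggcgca
Sdhaf1: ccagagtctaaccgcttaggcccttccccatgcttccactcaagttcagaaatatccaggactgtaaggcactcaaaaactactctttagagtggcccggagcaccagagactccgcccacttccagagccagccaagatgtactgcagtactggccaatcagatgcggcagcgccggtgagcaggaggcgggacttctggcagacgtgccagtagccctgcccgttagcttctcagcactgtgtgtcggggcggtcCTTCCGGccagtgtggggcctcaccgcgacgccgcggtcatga

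The motifs were short cores of factors known from respiratory chain promoters, searched on both strands: CCGGAAG for GABP, AAGATGGC for YY1, CACGTG for the E-box, and GCATGCGC for NRF1. A further NRF1 core, CGCANGCG, and the comparison with windows of genes measured here were added after the first scan and the printed windows had been seen. A window was found for 77 of the 93 genes, 82 windows in all. GCATGCGC was in 14.6% of them, against 2.71% of all 32851 windows of that length and 3.78% of the windows of genes measured here. CGCANGCG was in 40.2%, against 8.21% of all windows and 12% of those of genes measured here. Which complex II gene matched depended on the letters: GCATGCGC was in the Sdhb window, 54 bases before the start, and not in that of Sdha, while CGCANGCG was in the Sdha window 3 times and not in that of Sdhb.

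CCGGAAG was in 25.6% of the windows of the 93 genes, 8.86% of all windows and 12.1% of those of genes measured here. AAGATGGC was in 12.2%, 2.75% and 3.18% of the same sets, and CACGTG in 8.54%, 7.15% and 8.24%. The windows of the 93 genes had a median of 58.5% G and C, against 52.7% for all windows and 57.3% for genes measured here. GCATGCGC was in 15.6% of the windows of subunits called higher in either genotype and 12.8% of those called in neither, CGCANGCG in 34.4% and 43.6%, and CCGGAAG in 25% and 23.1%. The difference between these shares was not tested. Cox5a, with the largest WT rise, held none of these letters in its window, and Sdhaf1 held CCGGAAG on the opposite strand. These matches describe letters and do not show binding.

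The KO and WT responses share no arrays, though they share experiment numbers, and could be set side by side. Of the 35 genes that rose in either genotype, 23 rose in both, 1 in KO cells only (Ndufab1) and 11 in WT cells only. A dimmer transcript cluster of Ndufab1 was called higher in both genotypes, at 0.68 in KO and 0.62 in WT cells. Over all genes 2128 rose in either genotype, 1548 in both, 191 in KO cells only and 389 in WT cells only. Of the 9307 genes above background 1507 rose in either, 1130 in both, 99 in KO cells only and 278 in WT cells only. Sdhaf1 and Ndufaf5 fell in both genotypes. The difference had the same sign in both genotypes for 90 of the 93 genes, and for 8401 of the 9307 genes above background. Across the 93 genes the KO and WT differences correlated at r = 0.93, against 0.959 across all genes and 0.973 across the 9307 genes, as a description, since genes on the same arrays are not independent. The KO difference was below the WT difference for 72 of the 93 genes, with a median interaction of -0.10. The 9307 genes leaned the same way, with 5744 below and a median of -0.05, while 9290 of all 19938 genes were below and their median was 0.01. No gene passed the test of the interaction.

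The size of that lean moved with several arrays. Without activated KO array 3 the interaction median was 0.00432, with 47 genes above 0 and 46 below. It was -0.04 without activated WT array 1 or 3, -0.05 without native KO array 1 or native WT array 2, and -0.02 with array weights. It was -0.18 without activated KO array 1 and -0.20 without activated WT array 2. In KO cells 36 genes rose without activated KO array 3, and 27 of them were among the 34 WT rises of the fit with all arrays. The fit without that array called 47 WT rises. Of the 24 KO rises with all arrays, 22 were kept. With all arrays no interaction was called among all genes (0%), and 0.431% had an unadjusted p under 0.05, none of them among the 93. The members with the smallest p were Cox7b2 (0.34 ± 0.18), Ndufb2 (0.21 ± 0.19) and Atp5l (0.16 ± 0.18) on the higher side, and Cox5a (-0.37 ± 0.22), Ndufs7 (-0.23 ± 0.16) and Uqcrh (-0.38 ± 0.27) on the lower side, and every adjusted p rounded to 1. Cox7b2 lies near background.

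No difference between KO and WT cells in these genes passed the test in either state. The limma fit does not use the experiment number shared by a KO and a WT array. In both states fewer of all genes had an unadjusted p under 0.05 than that threshold gives without any difference. The fit was thus strict, and a lack of calls does not show equal levels. In native cells no gene of the 93 was called and none had an unadjusted p under 0.05 in limma. Over all genes 0% were called and 0.657% had an unadjusted p under 0.05. The median KO minus WT difference was 0.05, with 69 of 93 genes above 0, and that of all genes was -0.02. It was -0.02, with 41 genes above 0, without native WT array 2, 0.01 without native KO array 1, 0.09 without native KO array 2 and 0.11 without native WT array 3. The KO arrays were all above the WT arrays for 3 genes (Ndufb9, Cox5b and Atp5b) and all below for none, against 2.12% above and 4.92% below over all genes.

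The smallest p-values belonged to Ndufs7 (0.17 ± 0.11), Cox5b (0.15 ± 0.13) and Ndufb9 (0.18 ± 0.16) on the higher side. On the lower side they belonged to Cox7b2 (-0.23 ± 0.13), Ndufa12 (-0.12 ± 0.13) and Ndufaf5 (-0.09 ± 0.13). Every adjusted p of the 93 genes rounded to 1. The median standard error of a difference was 0.17 in that fit, which does not use the pairing of the native arrays. Cox5b read 11.14, 11.10 and 11.17 in native KO cells, against 10.99, 10.96 and 11.01 in native WT cells. Those groups did not overlap, and the standard error of the fit, shared with the activated arrays, was larger than their SDs of 0.04 and 0.03.

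Same-numbered native KO and WT arrays deviated together, so the 6 native arrays were also fitted alone with the number as a block, a fit added after the results had been seen. Its median standard error over the 93 genes was 0.08. No gene of the 93 was called, and Ndufb6 (0.20 ± 0.08) and Ndufb3 (0.19 ± 0.08), both of the membrane arm of complex I, had an unadjusted p under 0.05 on the higher side. That is 2.15% of the 93 genes, against 2.75% of all genes on that side. The lowest adjusted p of the 93 in limma was 0.866, and 14 of all 19938 genes were called, each higher in KO cells. Within the pairs, complex I averaged 0.08, 0.08 and 0.0019 higher in KO than in WT cells, complex II 0.12, 0.03 and 0.01, and complex IV 0.07, 0.09 and 0.0046. Complex III (0.13, 0.22 and -0.18) and complex V (0.10, 0.16 and -0.05) changed sign in the third pair.

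In activated cells the median KO minus WT difference was -0.04, with 63 of 93 genes below 0, and no gene was called or had an unadjusted p under 0.05. The 9307 genes above background had a median of -0.06, with 6491 below 0, so the members' share is near the general one. Over all genes 0% were called, 0.436% had an unadjusted p under 0.05, 0.858% had all KO arrays above and 0.888% all below the WT arrays. None of the 93 was separated either way. Without activated KO array 3 the median was 0.05, with 65 genes above 0. The sign also turned without activated WT array 1 (0.01, 54 above 0), without activated WT array 3 (0.0043, 47 above 0) and with array weights (0.02, 51 above 0). The median was -0.11 without activated KO array 1 and -0.12 without activated WT array 2. The smallest limma p-values were those of Uqcrh (-0.33 ± 0.19), Cox5a (-0.25 ± 0.15) and Ndufs5 (-0.37 ± 0.26) on the lower side. On the higher side they were those of Ndufb2 (0.19 ± 0.14), Atp5l (0.16 ± 0.13) and Cox6a2 (0.18 ± 0.17).

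Other genes around the chain were counted by list, to be read against the 8.72% of all genes that rose and 11.4% that fell in KO cells, and 9.72% and 10.9% in WT cells. The lists of 10 to 31 genes are small, and none was tested against other genes. Of 10 other chain components 2 rose and 2 fell in KO cells, and 4 rose and 2 fell in WT cells. Etfb, a subunit of the flavoprotein that takes electrons from fatty acid oxidation, rose by 1.23 ± 0.20 in KO and 1.52 ± 0.20 in WT cells. Atpif1, the inhibitor of ATP synthase, rose by 1.17 ± 0.16 in KO and 1.40 ± 0.16 in WT cells. Etfdh, which passes those electrons to coenzyme Q, fell, at -0.83 ± 0.21 in KO and -0.71 ± 0.21 in WT cells, as did Sqor, which oxidises sulfide and was at background in both activated groups. The electron carrier genes Cycs and Cyc1 rose in WT cells, by 0.72 ± 0.21 and 0.57 ± 0.17, and were not called in KO cells at 0.62 ± 0.21 and 0.45 ± 0.17.

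Of 31 assembly factors outside the prefixes 3 rose and 3 fell in KO cells, and 6 rose and 3 fell in WT cells. Uqcc2, a complex III factor, rose by 0.88 ± 0.28 in KO and 1.26 ± 0.28 in WT cells, and Tmem126b, a complex I factor, by 0.75 ± 0.23 in KO and 0.77 ± 0.23 in WT cells. Ttc19, which acts on complex III, fell, at -0.90 ± 0.15 in KO and -0.89 ± 0.15 in WT cells. Of 12 coenzyme Q genes Coq3, a methyltransferase of the pathway, rose (1.03 ± 0.24 in KO, 1.36 ± 0.24 in WT), and Coq10b, a coenzyme Q binding protein, fell (-1.64 ± 0.28 in KO, -1.63 ± 0.28 in WT).

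Of 18 genes for mitochondrial DNA and its expression, 2 rose and 4 fell in KO cells, and 3 rose and 4 fell in WT cells. Slirp, which stabilises mitochondrial messages, rose by 0.76 ± 0.23 in KO and 1.09 ± 0.23 in WT cells. Polg2, the accessory subunit of the mitochondrial DNA polymerase, fell (-1.64 ± 0.20 in KO, -1.59 ± 0.20 in WT), as did the transcription factor Tfb2m (-1.25 ± 0.16 in KO, -1.10 ± 0.16 in WT). The mitochondrial ribosome had 15 of 77 genes higher and none lower in KO cells, and 16 higher and 1 lower (Mrpl41) in WT cells. Mrpl45 rose by 1.20 ± 0.23 in KO and 1.24 ± 0.23 in WT cells, and Mrpl51 by 1.25 ± 0.28 in KO and 1.23 ± 0.28 in WT cells.

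Of 12 tricarboxylic acid cycle genes 3 rose in each genotype, none fell in KO cells and Ogdh fell in WT cells. Fh1, fumarase, rose by 0.94 ± 0.20 in KO and 1.22 ± 0.20 in WT cells, and Mdh2, malate dehydrogenase, by 0.49 ± 0.11 in KO and 0.56 ± 0.11 in WT cells. Of 11 nuclear regulators Hif1a, the oxygen-sensing factor, rose (0.99 ± 0.19 in KO, 1.05 ± 0.19 in WT) and Ppargc1b, a coactivator of mitochondrial genes, fell (-1.40 ± 0.15 in KO, -1.27 ± 0.15 in WT). Nrf1 and Gabpa, whose cores were searched above, were called in neither genotype, at -0.08 ± 0.11 and -0.05 ± 0.21 in KO and 0.04 ± 0.11 and 0.11 ± 0.21 in WT cells. Of 2 supercomplex factors Higd2a fell in KO cells, at -0.47 ± 0.11, and none of 4 nucleotide and phosphate carriers was called.

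**Figure D5:**
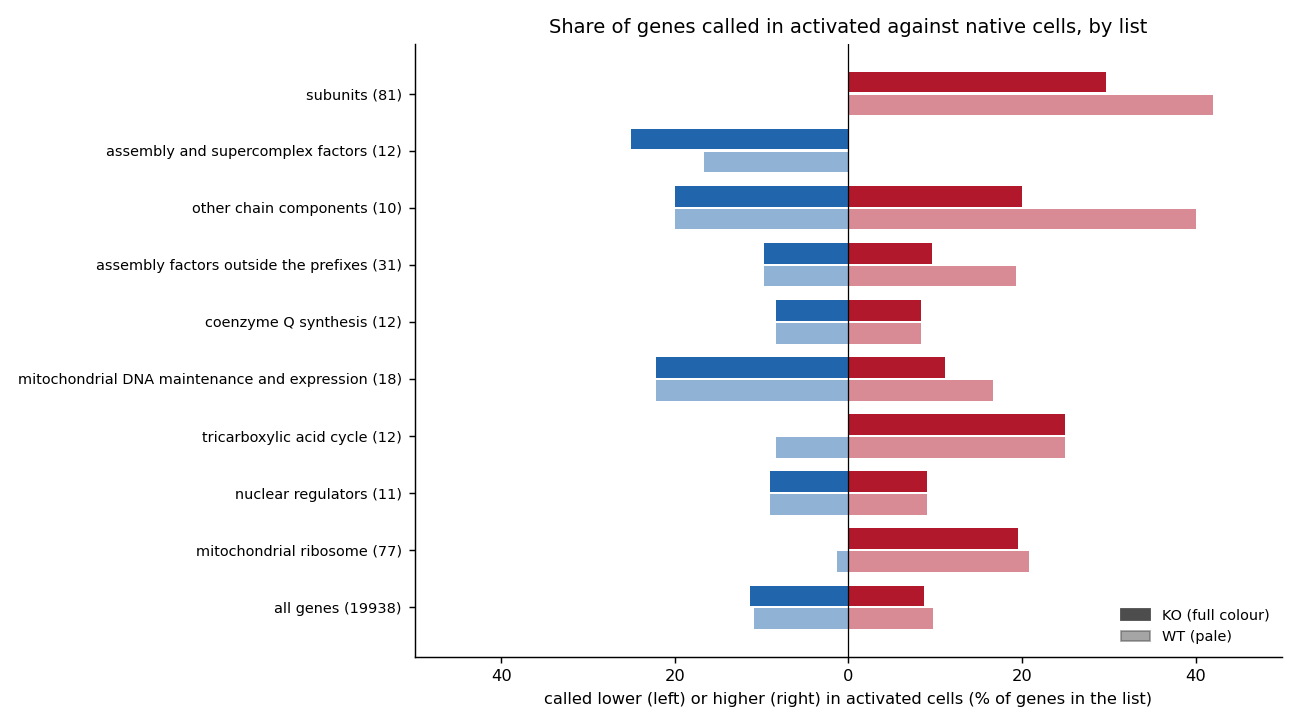
Share of the genes of each list (horizontal axis, percent; number of genes in parentheses) called higher (right, red) or lower (left, blue) in activated than in native cells, in KO (full colour) and WT cells (pale). The 81 subunits have called genes on the higher side only, the 12 assembly and supercomplex factors on the lower side only, and all 19938 genes have 8.72% and 9.72% higher in KO and WT cells.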

How the data were processed

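Each of the 12 arrays came with log2 values of 35556 transcript clusters, as deposited by the authors. The submitters' processing notes name Partek and RMA, with versions and options not given in the sources used. RNA was extracted with Trizol, cleaned on RNeasy columns and labelled as sense DNA, per the labels' protocols. RMA compresses differences near background. The platform annotation gave 1 symbol for 21789 clusters, several for 1621 and none for 12146, and only the first kind was used. The brightest cluster per gene over all arrays was kept (19938 genes; 18 of the 93 had several).

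Means of the 4 groups were fitted over all 12 arrays with limma 3.58.1 in R 4.3.3 (lmFit, eBayes), with Benjamini-Hochberg adjustment over 19938 genes and calls at an adjusted p under 0.05. Errors with differences are standard errors of that fit. The fit was run on simulated data with independent noise and no outlying or paired arrays, so that run does not cover those features. Arrays have no read depth, and 3 arrays per group limit the precision. The members, lists and motifs were chosen with earlier results of these data known. Genes were named by rule: per comparison and complex the 3 largest called, separated changes each way, or where none was called the 3 smallest p-values each way, with the isoform sets, complex II, members at background and the 2 largest called changes each way per list. Other genes named were chosen after their values were seen. Same-numbered native KO and WT arrays deviated together (r = 0.58, 0.40 and 0.16 across genes), so those numbers were taken as pairs. Same-numbered activated KO and WT arrays also shared an experiment number, but had r = 0.69, -0.02 and -0.01 and were not taken as pairs. Other groups did not pass that check either.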

Additional observations from a re-analysis of the deposited data

How the results depend on the processing

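The median activation difference of the 93 genes kept its sign in both genotypes under every alternative run, and no named gene changed the direction of a call. Rises numbered 37 in KO and 53 in WT cells after quantile normalization, 59 in KO and 61 in WT cells with array weights, and 12 in KO cells when only the groups compared were fitted. Over all genes 13.3% rose in KO and 14.6% in WT cells after quantile normalization. With array weights 17.6% rose in KO and 16.8% in WT cells, and 6.65% rose in KO cells when only the groups compared were fitted. For the 93 genes array weights also gave 5 falls and a median of 0.44 in KO cells. When single arrays were left out, rises ran from 9 to 36 in KO and 14 to 47 in WT cells, falls from 2 to 4 in KO and 2 to 3 in WT cells, and medians from 0.22 to 0.38 in KO and 0.34 to 0.50 in WT cells. The share of all genes that rose then ran from 6.13% to 13.4% in KO and 6.77% to 13.3% in WT cells. The median of the interaction ran from -0.20 to 0.00432, that of KO against WT from -0.12 to 0.05 in activated and -0.02 to 0.11 in native cells, with no call in any of them. The cause of these shifts was not tested. With the replicate number as a block over all 12 arrays, rises numbered 30 in KO and 40 in WT cells, and falls 3 and 2. Over all genes that fit gave 9.48% rises and 12.7% falls in KO cells, and 10.5% and 12% in WT cells. No member was called between KO and WT in either state in that fit, nor in the paired fit of the native arrays alone, added after the results had been seen. With the experiment number as a block, 0 of all 19938 genes were called between KO and WT in either state. Of the 27 calls in KO cells 11 held under all 21 alternatives, and of the 36 in WT cells 16. The share of promoter windows with the NRF1 core moved with the letters chosen after the data had been seen, to 40.2% of the members' windows, 8.21% of all windows and 12% of those of measured genes. Signal close to background limits the tissue-restricted forms, Ndufaf5 and Uqcr11.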

Other observations

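Xist was low on array 1 of the KO cells in each state, at 4.98 in activated and 5.26 in native cells, and lay between 9.34 and 11.47 on the other 10 arrays. Its relation to the respiratory chain genes was not tested.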
